A study of Mus musculus with 16 samples.

Results

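The effect of digestion time was examined in the 12 single cell libraries prepared 18 weeks after Cre induction, out of 16 libraries in the series. Of these, 5 came from aortas digested for 60 min and 7 from aortas digested for 30 min, and both sets were grouped by the submitters' label for digestion time. All mice were on the 129S6/SvEv background, carried the tamoxifen-inducible Myh11-CreER transgene, which is expressed in vascular smooth muscle cells (VSMCs), and had received tamoxifen at 6 weeks of age. The 60 min set held 2 Smad3+/+ libraries and 3 libraries labelled Smad3SmKO (Smad3 flox/flox before recombination), and the 30 min set held 3 and 4. The tissue in every case was the thoracic segment from the aortic root through the arch, digested with collagenase II, elastase and DNase I at 37 °C and sorted for DyeCycle Violet-positive, propidium iodide-negative cells. After limits on cell quality, these 12 libraries held 34662 of the 50858 cells of the series, of which 26495 were fibroblasts (Dcn at 5 or more UMIs and above Myh11) and 3792 were VSMCs (Myh11 at 5 or more UMIs and above Dcn).

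Enzymatic dissociation frees cells of the aortic wall from collagen and elastin while they are warm and transcriptionally active. Adventitial fibroblasts lie in loose collagen at the outer surface, whereas VSMCs are held between the elastic lamellae of the media. Dissociated cells are known to induce immediate early genes, which encode short-lived transcription factors and feedback regulators such as Fos, Atf3 and Ier5, and the targets of NF-kB, the factor that switches on chemokines, cytokines and their own inhibitors.

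Digestion time was nested in batch, since every library of batches 1, 2 and 3 had the 30 min digestion and every library of batches 5 and 6 the 60 min digestion, and it also followed the tracer label, None at 30 min and Myh11-GFP at 60 min. Digestion, batch and tracer therefore cannot be told apart, and no batch gave a within-batch value. Batch 5 held only libraries labelled Smad3SmKO. At 60 min, libraries 1 and 2 were Smad3+/+ from batch 6, library 4 was labelled Smad3SmKO and from batch 6, and libraries 3 and 5 were labelled Smad3SmKO and from batch 5; values at 60 min are given below in the order 1 to 5. Smad3 RNA was at a similar level in VSMCs of the libraries labelled Smad3SmKO (4.04 to 17.3 CPM, a gene's UMIs scaled to a fixed total of the class, median 7.93, 310 UMIs) and in those of Smad3+/+ (2.83 to 9.89 CPM, median 8.00, 145 UMIs). The 30 min VSMC sums held only 2 to 30 Smad3 UMIs each, so the 30 min counts cannot judge the deletion. At 60 min, the Smad3+/+ libraries 1 and 2 held 44 and 61 Smad3 UMIs (7.16 and 8.00 CPM). Libraries 3, 4 and 5, labelled Smad3SmKO, held 150, 13 and 108 (7.93, 4.04 and 11.9973 CPM). Library 4 lay below both Smad3+/+ libraries and library 5 above both, so no common reduction was seen at 60 min. The cause was not tested. By qPCR against Myh11 and by immunoblot, the paper reports significantly less Smad3 in Smad3SmKO aortas than in controls. The genotypes are used as labelled. The tracer label was not borne out in 60 min libraries 1 and 2, which held 0 GFP UMIs in any cell, against 82 to 372 in the other 3; counts are also given without these 2 libraries. Libraries held 12539539 to 52843031 UMIs, and no pair shared more than 10 cell barcodes. The classes fitted their defining markers, with Pdgfra at 179 CPM in fibroblasts and 3.57 CPM in VSMCs, and Acta2 at 733 CPM and 30554 CPM, over the 12 libraries.

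VSMCs made up a larger share of the cells after 60 min. They were 2.31 to 7.94% of kept cells at 30 min (median 3.91%), and 13.8, 13.4, 35.2, 4.91 and 62.4% at 60 min. The means were 4.34% ± 1.93 (SD, n = 7) and 26.0% ± 23.3 (SD, n = 5), a difference of 21.4 percentage points with genotype as a term (two-sided exact permutation test within genotype, p = 0.00571, adjusted p = 0.0343 over 18 measures). The groups overlapped, because 60 min library 4 lay within the 30 min range. Batch 5 held the highest values, and without it the difference was 5.73 percentage points and did not pass (adjusted exact permutation p = 0.176). Fewer arrangements remain without a batch, so the smallest possible p is larger and this failure alone cannot judge the difference. Among the 4 libraries taken 10 weeks after induction, which were digested for 60 min in a batch of their own, VSMCs were 17.8 to 42.5% of cells.

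**Figure D1:**
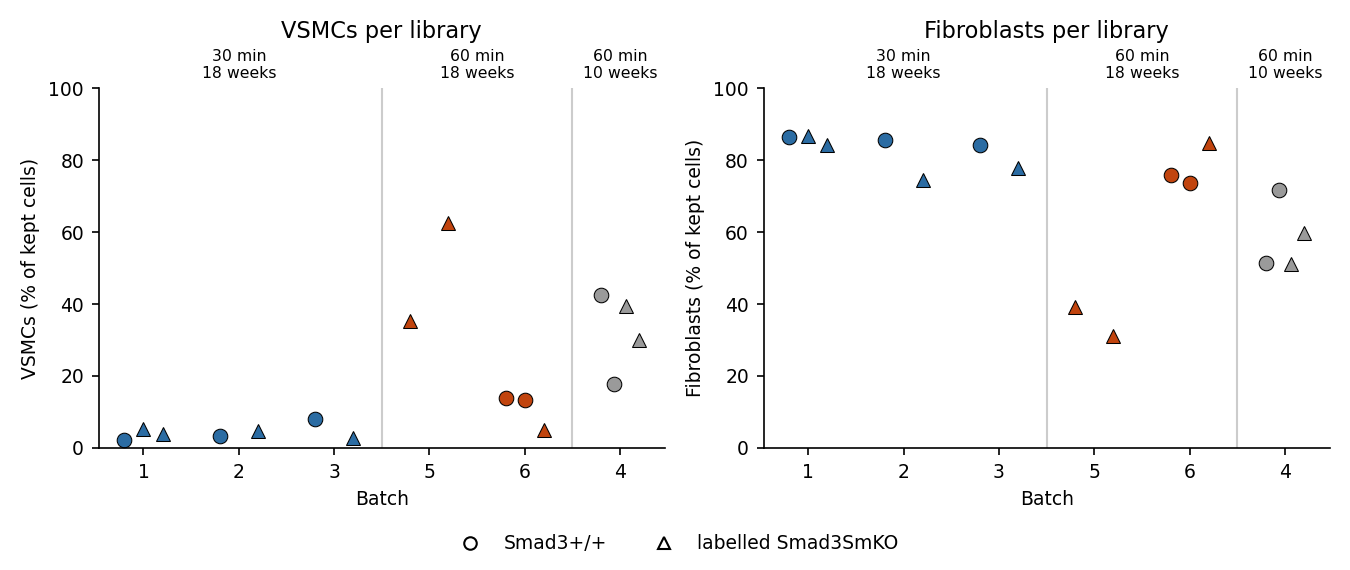
Share of kept cells classed as VSMCs (left) and fibroblasts (right), in percent, 1 point per library, by batch, with circles for Smad3+/+ and triangles for libraries labelled Smad3SmKO. VSMCs stayed at or under 7.94% in the 7 libraries of 30 min and reached 62.4% in a batch 5 library of 60 min, where fibroblasts were 31.1%.

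Fibroblasts were 74.4 to 86.6% of kept cells at 30 min (mean 82.8% ± 4.74, SD, n = 7) and 76.0, 73.7, 39.1, 84.7 and 31.1% at 60 min (mean 60.9% ± 24.1, SD, n = 5). The difference of −21.5 percentage points did not pass the correction (exact permutation p = 0.0171, adjusted p = 0.0617), and the 2 libraries of batch 5 held the lowest values. Leukocytes averaged 7.67% ± 3.95 at 30 min and 8.04% ± 8.00 at 60 min (adjusted p = 0.951, exact permutation test), with 21.7% in 60 min library 3. Endothelial cells averaged 3.76% ± 1.60 and 2.68% ± 1.59 (adjusted p = 0.476, exact permutation test). Shares sum to a whole, so a gain of one class and a loss of another cannot be told apart.

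Fewer of the deposited barcodes met the quality limits after 60 min. Between 82.5 and 94.7% were kept at 30 min, and 60.7, 51.6, 65.9, 83.8 and 80.1% at 60 min (difference −22.6 percentage points, exact permutation p = 0.00571, adjusted p = 0.0343). Only library 4 reached into the 30 min range. The lower limits on genes or UMIs removed 5.20 to 17.1% of barcodes at 30 min. At 60 min they removed 38.9, 48.0, 33.8, 16.2 and 6.73%. In library 5 the upper limits removed 102 of 788 barcodes and the lower limits 53. With any 1 batch left out, the difference in the kept share did not pass, but fewer arrangements then remain and a pass is harder to reach. The permutations of yields and quality treat libraries as exchangeable, although digestion followed batch. Over batch means, an exact permutation p cannot be under 0.1. Fibroblasts thinned to 2000 UMIs each held a median of 1037 to 1067 genes at 30 min and 1012, 1013, 1009, 964 and 984 at 60 min, with no overlap between the groups (exact permutation p = 0.00286, the smallest the 350 arrangements allow, adjusted p = 0.0343). VSMCs held 1013 to 1097 genes at 30 min and 970 to 1014 at 60 min on the same scale (adjusted p = 0.0514, exact permutation test). Neither the median UMIs per cell nor the mitochondrial share of UMIs passed the test over all kept cells, fibroblasts or VSMCs, and over all kept cells the mitochondrial share was 1.98 to 3.32% at 30 min and 1.20 to 4.31% at 60 min.

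UMIs were then summed per library over the cells of a class, so that the library was the replicate, and tested across all genes. Adjusted p-values of genes are from edgeR's quasi-likelihood test with genotype as a term and Benjamini-Hochberg adjustment, and levels are CPM after scaling by library. In such sums a change in a few cells and a smaller change in all cells of the class cannot be told apart.

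In fibroblasts, 189 of 14285 genes tested were higher at 60 min (1.32%) and 90 were lower (0.63%), and the median log2 fold change of all genes was 0.00. Chemokine and cytokine genes under NF-kB control made up most of the genes named for the size of their increase. Of the 25 genes in the NF-kB and cytokine list, 13 were higher and 0 lower at an adjusted p under 0.05, and the list's median log2 fold change was 1.28. Over 29 alternatives the number higher ranged from 2 to 17 and the median from 1.02 to 1.44. All 5 libraries of 60 min lay above all 7 of 30 min for 11 of the 25, against 1.4% of all genes tested above and 1.72% below.

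Cxcl1, a chemokine that attracts neutrophils, stood at 130.9 to 473 CPM (median 312) in fibroblasts at 30 min and at 5112, 2502, 1800.5, 4645 and 1783 CPM at 60 min (log2 fold change 3.29 ± 0.34 SE, adjusted p = 0.00121). Ccl7 and Ccl2, which attract monocytes, followed the same course. Ccl7 was at 75.9 to 225 CPM (median 101) and then at 1079.7, 1274, 1149.6, 1815 and 464 CPM (log2 fold change 3.20 ± 0.33 SE, adjusted p = 0.00121). Ccl2 was at 61.2 to 207 CPM (median 151) and then at 1470.2, 1079, 1054, 1644 and 319 CPM (log2 fold change 2.98 ± 0.38 SE, adjusted p = 0.00371). For all 3 chemokines the groups did not overlap, and for Ccl7 and Ccl2 library 5 held the lowest value at 60 min. The cytokine Il6 rose from between 10.3 and 39.0 CPM (median 17.0) at 30 min to 270.1, 131.3, 175, 121 and 97.7 CPM at 60 min (log2 fold change 3.12 ± 0.35 SE, adjusted p = 0.00228), again with no overlap. Cxcl2, a neutrophil chemokine like Cxcl1, stood at 17.6 to 71.5 CPM (median 33.5) and then at 237, 218, 797, 1577 and 573 CPM (log2 fold change 3.75 ± 0.47 SE, adjusted p = 0.00334), with no overlap, and leukocyte transcripts, which carry much Cxcl2, are set beside it below. Tnfaip3, which encodes the NF-kB inhibitor A20, rose from between 5.13 and 10.9 CPM (median 6.98) at 30 min to 29.3, 42.3, 18.7, 58.6 and 98.1 CPM at 60 min (log2 fold change 2.70 ± 0.34 SE, adjusted p = 0.00334).

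Cxcl5, another neutrophil chemokine and also a marker of a fibroblast subset, was the gene with the largest log2 fold change among those named, at 2.07 to 18.3 CPM (median 4.81) at 30 min and at 43.6, 31.3, 386, 46.7 and 235 CPM at 60 min (log2 fold change 4.15 ± 0.72 SE, adjusted p = 0.0179). The 2 libraries of batch 5 stood far above the 3 of batch 6. Other members of the list that were higher included Ptgs2, the inducible cyclooxygenase (2.23), the hyaluronan-binding protein gene Tnfaip6 (3.10), the NF-kB inhibitor gene Nfkbia (1.28) and the adhesion molecule gene Icam1 (0.93), all as log2 fold changes with adjusted p of 0.00771 to 0.041. With batch as a random effect none of these 4 passed, with adjusted p in limma-voom of 0.0678, 0.104, 0.0627 and 0.129. Tnfaip6 overlapped between the groups through 60 min library 5, which held 59.5 CPM against a 30 min maximum of 94.7 CPM.

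**Figure D2:**
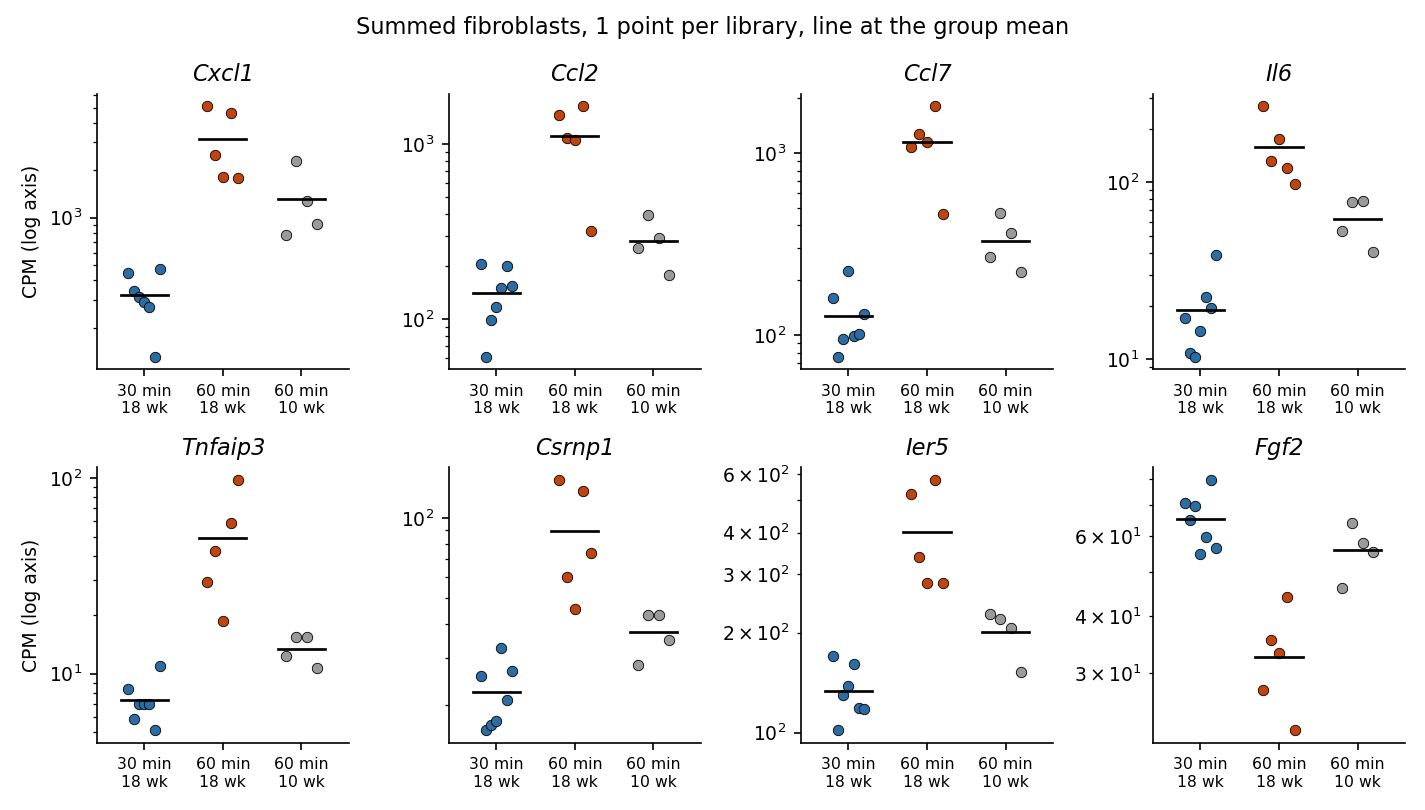
CPM (log axis) of 8 named genes in summed fibroblasts, 1 point per library with a line at the mean, for 30 min and 60 min at 18 weeks and 60 min at 10 weeks. For all 8 genes the 5 libraries of 60 min at 18 weeks do not overlap the 7 of 30 min, with Fgf2 lower and the others higher; for Il6 they sit at 97.7 CPM or more and those of 30 min at 39.0 CPM or less.

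In the 10 week libraries, digested for 60 min, the fibroblast levels of these genes mostly lay between or overlapped those of both 18 week groups. Cxcl1 was at 771 to 2289 CPM, Il6 at 40.1 to 78.3 CPM and Tnfaip3 at 10.6 to 15.4 CPM. Ccl2 was at 178 to 395 CPM there, overlapping the 30 min range. Time after induction and batch cannot be told apart in these 4 libraries, and they entered no test.

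Several of these genes are neighbours on their chromosome. Cxcl5, Cxcl1 and Cxcl2 are at chr5:90759360-90761624, chr5:90891241-90893115 and chr5:90903871-90905938, and Ccl2 and Ccl7 at chr11:82035571-82037453 and chr11:82045712-82047525 (GRCm38, GENCODE M21). An NF-kB motif (GGGA, 2 bases of any kind, then TTCC) was searched on both strands from 250 bases before to 50 bases after the start of each gene, in RefSeq sequence of GRCm38.p6. It was present for 6 of the 17 NF-kB list genes that had a promoter entry (Csf1, Cxcl1, Cxcl10, Cxcl2, Il6 and Nfkbia), for 0 of 29 immediate early genes, and for 441 of 27025 genes in all (1.63%). Among fibroblast genes with an entry it was present for 1.72% of those tested, 8 of 138 higher at 60 min (5.80%) and 2 of 74 lower (2.70%). The 8 include Cxcl1, Cxcl2, Il6 and Nfkbia, which are also members of the NF-kB list. That list was chosen for its link to NF-kB, so neither share is independent evidence. The AP-1 motif (TGA, any base, then TCA) and the CRE motif (TGACGTCA) were searched in the same way. AP-1 was present for 5 of the 17 NF-kB list genes. In fibroblasts it was present for 6.46% of genes tested, 21 of 138 higher (15.2%) and 4.05% of those lower. For CRE these were 0 of 17, 3.46%, 5.07% and 6.76%. The NF-kB motif was thus not the only one more frequent among the higher genes. A match describes the letters only, and binding was not measured. The windows around the NF-kB match are shown for the 4 of the 6 NF-kB list genes with it that were higher in fibroblasts. They run 5′ to 3′ on the strand of the gene, with the match in capitals (bases that 2 matches share on opposite strands are in 1 run). They lie at chr5:90891154-90891204 (Cxcl1, plus strand), chr5:90903782-90903832 (Cxcl2, plus strand), chr5:30013050-30013099 (Il6, plus strand) and chr12:55492647-55492696 (Nfkbia, minus strand).
Cxcl1: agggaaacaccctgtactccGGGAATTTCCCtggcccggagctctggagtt
Cxcl2: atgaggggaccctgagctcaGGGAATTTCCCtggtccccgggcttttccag
Il6: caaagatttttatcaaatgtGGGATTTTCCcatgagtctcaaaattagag
Nfkbia: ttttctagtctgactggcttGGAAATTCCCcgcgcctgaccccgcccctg

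Of 36 immediate early genes tested in fibroblasts, 6 were higher and 0 lower, 34 had a positive log2 fold change, and the median was 0.62. Over 29 alternatives 1 to 16 were higher, 23 to 35 were positive, and the median was 0.17 to 0.89. Csrnp1, an early nuclear protein gene, rose from between 16.1 and 32.6 CPM (median 21.0) at 30 min to 139, 60.3, 45.5, 126 and 74.0 CPM at 60 min (log2 fold change 2.00 ± 0.29 SE, adjusted p = 0.00576). Ier5 rose from between 102 and 170.1 CPM (median 130.0) at 30 min to 523, 338, 282, 578 and 281 CPM at 60 min (log2 fold change 1.58 ± 0.21 SE, adjusted p = 0.00448), and neither gene overlapped between the groups. The antiproliferative gene Btg1 (1.32), the stress-induced factor Atf3 (1.42), Myc (1.44) and Ier3 (1.42) were also higher on the log2 scale, with adjusted p of 0.00334, 0.0176, 0.0244 and 0.0452. The genes most often linked with dissociation, Fos, Fosb, Jun, Junb and Egr1, did not pass the test, with log2 fold changes of 0.58, 0.71, 0.12, 0.77 and 0.49. Atf3, Myc and Ier3 did not pass with batch as a random effect (adjusted p of 0.0904, 0.104 and 0.165 in limma-voom), and their calls were lost under 10, 12 and 19 of 29 alternatives. Csrnp1 and Ier5 passed there (0.0346 and 0.0207 in limma-voom) but not with 1 sum per batch (adjusted p of 0.0697 and 0.0758 in edgeR). Their calls were lost under 5 and 4 of 29 alternatives.

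The other stress lists had smaller medians in fibroblasts. Of 20 oxidative stress genes, 5 were higher and 0 lower (Hmox1, the heme-degrading oxygenase, at 1.53, Slc7a11 at 2.36, Sod3 at 1.02, Sqstm1 at 0.76 and Gpx1 at 0.64 on the log2 scale), with a list median of 0.37. Of 20 heat shock and folding genes only Hspb8 was higher (0.67), with 19 positive and a median of 0.25. No gene of 20 in the unfolded protein response list passed (median 0.07), nor did any of 21 interferon-induced genes (median −0.15) or of 13 mitochondrially encoded genes (median −0.26). Hk2 (2.46) and Ankrd37 (1.28) were higher among 20 glycolysis and hypoxia genes, and Pmaip1 (2.25) and Tnfrsf10b (0.83) among 20 p53 and apoptosis genes. The protease gene Plau (2.42) and the inhibitor gene Serpine2 (1.14) were the members called among 20 matrix proteases and inhibitors.

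The genes named for their decrease in fibroblasts had smaller fold changes than those named for their increase, apart from Car3. With batch as a random effect Car3, Fgf2, Tcf12, Irf2bpl and Fbxw17 did not pass. Fgf2, a growth factor, was at 54.9 to 79.7 CPM (median 65.0) at 30 min and at 27.6, 35.5, 33.2, 44.2 and 22.5 CPM at 60 min (log2 fold change −0.99 ± 0.17 SE, adjusted p = 0.0148). The splicing-related gene Pnisr fell by 0.84 on the log2 scale, from between 81.4 and 118 CPM (median 88.3) to 46.1, 41.1, 54.3, 52.0 and 73.5 CPM (adjusted p = 0.0179). The RNase P-like gene Rpp25l (−0.75) and the regulator genes Zfp871 (−0.73) and Irf2bpl (−0.67) were lower by similar amounts on the log2 scale, as were the transcription factor gene Tcf12 (−0.91) and the F-box gene Fbxw17 (−0.81). Fbxw17 alone among these overlapped between the groups. Car3, a carbonic anhydrase gene of fat cells, had the largest decrease among the named genes, from between 25.8 and 144 CPM (median 47.5) to 3.23, 6.15, 15.6, 0.944 and 0.230 CPM (log2 fold change −3.45 ± 0.71 SE, adjusted p = 0.0343). None of the 8 named genes that were lower kept its call without 60 min libraries 1 and 2.

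Smooth muscle transcripts had positive log2 fold changes within the fibroblast class itself. All 20 contractile genes had a positive log2 fold change in fibroblasts (median 0.98), although only Cnn1, the calponin gene, passed, with 0.635 to 11.6 CPM (median 5.85) at 30 min and 17.0, 19.4, 75.0, 49.0 and 287 CPM at 60 min (log2 fold change 3.43 ± 0.79 SE, adjusted p = 0.0487). The VSMC subset markers Igfbp2 (4.13), Fn1 (2.78) and Tes (2.54) were higher on the log2 scale, with the highest value of each in 60 min library 5, the library with 62.4% VSMCs. The summed level of the 12 VSMC markers in fibroblasts was 752 to 3849 CPM at 30 min and 1353 to 14745 CPM at 60 min, with the mean of 12 of 12 higher at 60 min. Myh11 is among the 12 and is used in the class rule. On average the markers without it reached 6.26% of their VSMC level in the fibroblasts of 60 min. Cnn1 is itself among those markers, so its comparison with that share is not independent. The same share of the VSMC level of Cnn1 would be 134 CPM, against 82.0 CPM in the fibroblasts (before scaling). For Fn1 it would be 61.0 of 876 CPM. With batch as a random effect in limma-voom, Cnn1, Igfbp2, Fn1 and Tes had adjusted p of 0.124, 0.215, 0.183 and 0.140 and did not pass, and their calls were lost under 20, 12, 16 and 14 of 28 or 29 alternatives. How far VSMC RNA entered the fibroblast sums was not tested.

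In VSMCs, 185 of 10164 genes tested were higher at 60 min (1.82%) and 176 were lower (1.73%), with a median log2 fold change of 0.00 over all genes. Every 60 min library lay above every 30 min library for 1.33% of genes and below for 1.05%. Pam, which encodes the enzyme that amidates peptide hormones, was at 550.0 to 809 CPM (median 639) at 30 min and at 1329.8, 1828, 2519, 1658 and 1700.4 CPM at 60 min (log2 fold change 1.47 ± 0.16 SE, adjusted p = 0.000184). Wnt16, a Wnt ligand, was at 22.7 to 67.8 CPM (median 41.5) and then at 148, 161, 137, 109.7 and 158 CPM (log2 fold change 1.68 ± 0.21 SE, adjusted p = 0.000451). The groups did not overlap for either gene. Ptprz1, a receptor tyrosine phosphatase gene, rose from between 24.2 and 87.8 CPM (median 42.5) at 30 min to 151, 231.7, 213, 125 and 111 CPM at 60 min (log2 fold change 1.72 ± 0.23 SE, adjusted p = 0.000967), and the secreted factor Ndnf from between 1.33 and 13.8 CPM (median 8.61) to 42.6, 44.6, 32.6, 29.1 and 49.1 CPM (log2 fold change 2.09 ± 0.25 SE, adjusted p = 0.000336). These 4 genes kept their call under all 30 alternatives tried. At 10 weeks Pam was higher still, at 3598 to 5062 CPM, and Ptprz1 was at 221 to 344 CPM.

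Of 25 collagen and elastic fibre genes, 7 were higher and 0 lower in VSMCs, 24 were positive, and the median log2 fold change was 0.64. Mfap4, an elastic fibre glycoprotein gene, was at 526 to 1309.7 CPM (median 738) at 30 min and at 2456, 2705, 2759.9, 1754 and 1715 CPM at 60 min (log2 fold change 1.44 ± 0.21 SE, adjusted p = 0.00196). Fbln2 (1.99), Mfap5 (1.20), Fn1 (1.18), Col1a1 (0.95), Col15a1 (0.83) and Fbn1 (0.66) were the others on the log2 scale. The list count ranged from 0 to 18 higher across alternatives, and its median from 0.40 to 0.99. The same list had a median of 0.54 in fibroblasts, where 1 of 25 was higher. Fibroblast markers read 2627 to 3293 CPM in VSMCs at 30 min and 3006 to 5346 CPM at 60 min, higher for 7 of 12. These markers include Col1a1, Col1a2, Col3a1, Fbln1 and Mfap5, which are also in the matrix list. Their sum is therefore no separate measure of fibroblast RNA, and the part of fibroblast RNA in the matrix genes was not tested. No contractile gene of 20 passed in VSMCs (median 0.33), while the matricellular gene Wisp2 (1.47), Itgb1 (0.66) and Thy1 (1.65) were higher.

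**Figure D3:**
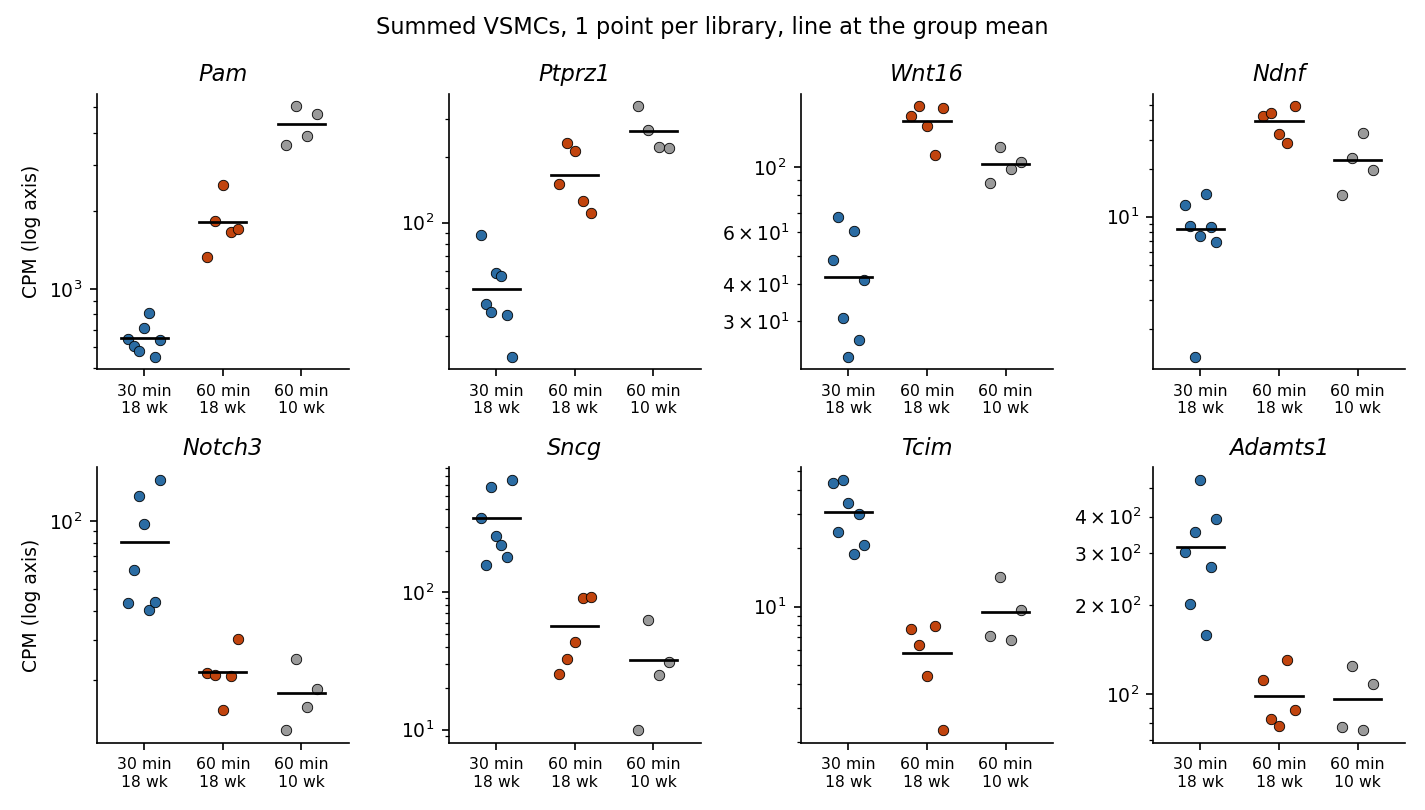
CPM (log axis) of 8 named genes in summed VSMCs, 1 point per library with a line at the mean, for 30 min and 60 min at 18 weeks and 60 min at 10 weeks. The upper 4 genes are higher and the lower 4 lower at 60 min with no overlap at 18 weeks; Pam sits at 550.0 to 809 CPM at 30 min and at 1329.8 to 2519 CPM at 60 min.

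Among genes lower in VSMCs, Notch3, the receptor that maintains arterial smooth muscle, was at 40.6 to 152 CPM (median 60.8) at 30 min and at 21.4, 20.9, 14.7, 20.8 and 30.0 CPM at 60 min (log2 fold change −1.78 ± 0.32 SE, adjusted p = 0.00611). The synuclein gene Sncg was at 159 to 660.2 CPM (median 258) and then at 25.4, 32.6, 43.0, 91.4 and 91.7 CPM (log2 fold change −2.69 ± 0.42 SE, adjusted p = 0.00241). Tcim, a small regulator of transcription and growth, was at 18.7 to 45.3 CPM (median 30.1) and then at 7.69, 6.37, 4.39, 7.96 and 2.30 CPM (log2 fold change −2.44 ± 0.27 SE, adjusted p = 0.000184). All 60 min libraries lay below all 30 min libraries for these 3 genes. So did they for the glucocorticoid-induced gene Tsc22d3 (−1.95), the protease gene Adamts1 (−1.67), the protease inhibitor gene Serpinb1a (−2.35), the phosphodiesterase gene Pde1a (−1.26) and the tetraspanin gene Cd82 (−1.22), given as log2 fold changes. Without 60 min libraries 1 and 2, the calls for Tcim, Tsc22d3 and Adamts1 remained and those for Notch3, Sncg, Serpinb1a, Pde1a and Cd82 did not.

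Markers that separate VSMC subsets moved in both directions. Of 19 tested in VSMCs, 3 were higher (Ptprz1, Igfbp2 and Fn1) and 4 lower (Notch3, Enpep, Rgs4 and Pln), with a median log2 fold change of 0.04. The paper names Ptprz1, Tes, Notch3, Enpep and Mgp as markers of its VSMC clusters, which were found on a series that includes these libraries. The list as a whole was chosen with earlier results of these data known, so the split is not independent evidence. Enpep, the aminopeptidase A gene, fell from between 12.9 and 97.3 CPM (median 47.9) at 30 min to 17.4, 9.42, 15.8, 14.9 and 21.4 CPM at 60 min (log2 fold change −1.67 ± 0.31 SE, adjusted p = 0.00810), and Igfbp2 rose from between 10.4 and 502 CPM (median 92.5) at 30 min to 290.3, 693, 1287, 753 and 1596 CPM at 60 min (log2 fold change 2.48 ± 0.50 SE, adjusted p = 0.0114). Both overlapped between the groups. Whether the mix of subsets or the level per cell moved was not tested.

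Of 36 immediate early genes tested in VSMCs, 0 were higher, 4 were lower and 32 did not pass, 26 were negative, and the median log2 fold change was −0.35. Klf4, a transcription factor of smooth muscle dedifferentiation, was at 91.6 to 339 CPM (median 223) at 30 min and at 85.0, 49.3, 46.1, 106 and 76.2 CPM at 60 min (log2 fold change −1.39 ± 0.31 SE, adjusted p = 0.0194). Btg2 (−1.07), Klf2 (−1.26) and Nr4a2 (−1.47) were the other 3, and all 4 overlapped between the groups. With batch as a random effect in limma-voom, Klf4 and Btg2 passed, and Klf2 and Nr4a2 did not (adjusted p of 0.0820 and 0.0966). The calls for Klf2 and Nr4a2 were lost under 19 and 18 of 30 alternatives. Across 30 alternatives the list median stayed between −0.52 and −0.17, while the number lower ranged from 0 to 7 and the number higher from 0 to 2. Cdkn1a (−1.66) and Trp53inp1 (−0.96) were lower among 19 p53 and apoptosis genes. Hspa1a was lower (−1.67, adjusted p = 0.0316), although its reads may be shared with the near-identical Hspa1b, and Hspb8 was higher (0.96). Neither passed with batch as a random effect (adjusted p of 0.0877 and 0.0889 in limma-voom).

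Chemokine transcripts were also higher in the VSMC class, at lower levels. Of 18 NF-kB list genes tested, 6 were higher and 0 lower, and the list's median log2 fold change was −0.02. Over 30 alternatives the number higher ranged from 1 to 12 and the median from −0.13 to 1.06, the highest with no filter on low counts, where all 25 genes were tested. Cxcl1 was at 6.91 to 37.3 CPM (median 19.2) at 30 min and at 81.4, 73.9, 67.9, 131.5 and 84.3 CPM at 60 min (log2 fold change 2.01 ± 0.24 SE, adjusted p = 0.000336), and Ccl7 at 0 to 2.67 CPM (median 1.08) and then at 44.5, 42.1, 19.7, 54.0 and 11.4 CPM (log2 fold change 5.10 ± 0.53 SE, adjusted p = 0.000184). Cxcl2 was at 0 to 5.69 CPM (median 2.15) and then at 17.1, 125, 728, 414 and 76.9 CPM (log2 fold change 6.56 ± 0.72 SE, adjusted p = 0.000184). In the VSMC sums of 30 min, 3 UMIs equal 0.931 to 10.7 CPM before scaling. The fold changes of Ccl7 and Cxcl2 therefore start near the detection floor, and their size is uncertain. Leukocyte and fibroblast transcripts moved in the same libraries. The 12 leukocyte markers summed to 7.61 to 141 CPM in VSMCs at 30 min and 25.2 to 621 CPM at 60 min, with 12 of 12 higher on average, and the neutrophil genes S100a8 (4.23) and S100a9 (3.97) were called higher on the log2 scale.

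The marker shares give a scale for these levels. In VSMCs of 60 min the leukocyte markers, Cd74 included, stood at 0.749% of their level in leukocytes. That share of leukocyte Cxcl2 would be 271 CPM, against 253 CPM in the VSMCs (before scaling). The 3 fibroblast markers, Dpt, Pdgfra and Pi16, stood at 1.87% of their fibroblast level, and that share of fibroblast Cxcl1 would be 57.1 CPM, with 26.6 CPM from the leukocyte share, against 82.4 CPM in the VSMCs. For Ccl7 these were 19.3 and 14.3 CPM against 32.2 CPM. In fibroblasts, the leukocyte share of 1.16% would be 453 of 614 CPM of Cxcl2 (350.3 CPM where Cd74 was left out of the markers), but 42.3 of 2889 CPM of Cxcl1, 22.6 of 1019 CPM of Ccl2 and 0.386 of 147 CPM of Il6. For Ccl7 in fibroblasts it would be 22.8 of 1059 CPM. The part of leukocyte or fibroblast RNA in these sums was not tested.

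The change from 30 to 60 min differed between both classes for 252 of 13250 genes, tested in 1 fit with a term for each library. It was higher in VSMCs for 75 (0.566%) and lower for 177 (1.34%). Immediate early genes were prominent among the latter, with 12 of 36 lower, 0 higher, and a median difference of −0.88 on the log2 scale. Csrnp1 differed by −2.43 ± 0.27 SE (adjusted p = 0.00194), Atf3 by −1.99 ± 0.31 (adjusted p = 0.00672) and Ier5 by −1.45 ± 0.19 (adjusted p = 0.00207). Nr4a2, Klf4, Sgk1, Zfp36, Klf2, Btg2, Btg1, Klf6 and Fosl2 were the others. With 1 sum per batch Csrnp1 passed (adjusted p = 0.0274 in edgeR), and Atf3, Ier5 and Btg1 did not (0.0539, 0.0621 and 0.0575 in edgeR).

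**Figure D4:**
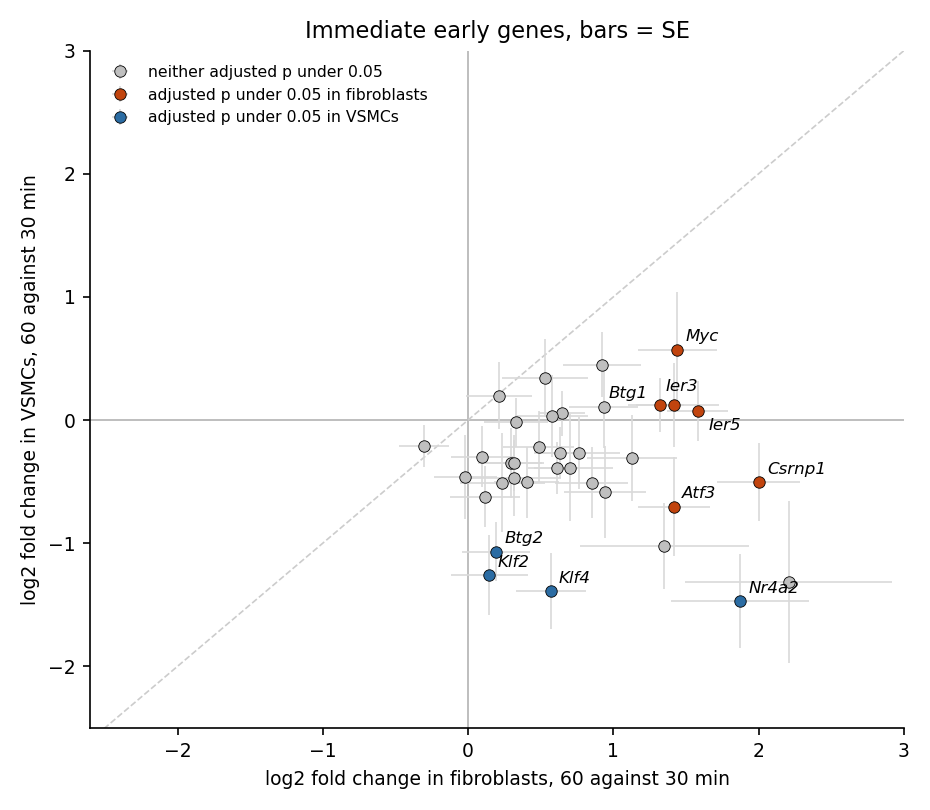
Log2 fold change of each of 36 immediate early genes from 30 to 60 min in summed fibroblasts (horizontal) and VSMCs (vertical), with bars of 1 SE and a dashed line of equal change. Most points lie below the line, and the median was 0.62 in fibroblasts and −0.35 in VSMCs.

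Among heat shock genes, 4 of 20 were lower in VSMCs by the same test of the difference (Dnajb1, Hspa1a, Bag3 and Dnaja1) and 0 higher. The protease gene Adamts1 differed by −2.31 ± 0.27 SE (adjusted p = 0.00194) and the tubulin gene Tuba1c by −1.74 ± 0.25 (adjusted p = 0.00367). In the other direction the secreted Wnt modulator Dkk3 differed by 1.71 ± 0.21 (adjusted p = 0.00194), from 209 to 369 CPM to 143 to 233 CPM in fibroblasts and from 44.1 to 103 CPM to 102 to 168 CPM in VSMCs. The class II antigen genes H2-Eb1 (2.50) and H2-Ab1 (1.98) were higher too, and the leukocyte marker share would be 27.5 of 34.6 CPM of H2-Eb1 in VSMCs. That share includes Cd74, the marker with the highest level in leukocytes (23602 CPM, next Lyz2 at 7510 CPM), which weighs heavily in it. With cells thinned before summing neither class II gene passed (adjusted p of 0.374 and 0.163 in edgeR). Without the Smad3+/+ libraries of 60 min (libraries 1 and 2), 0 genes passed for the difference between classes in edgeR, with 1308 at an unadjusted p under 0.05, and the median difference of the early gene list was −0.44 in place of −0.88.

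**Figure D5:**
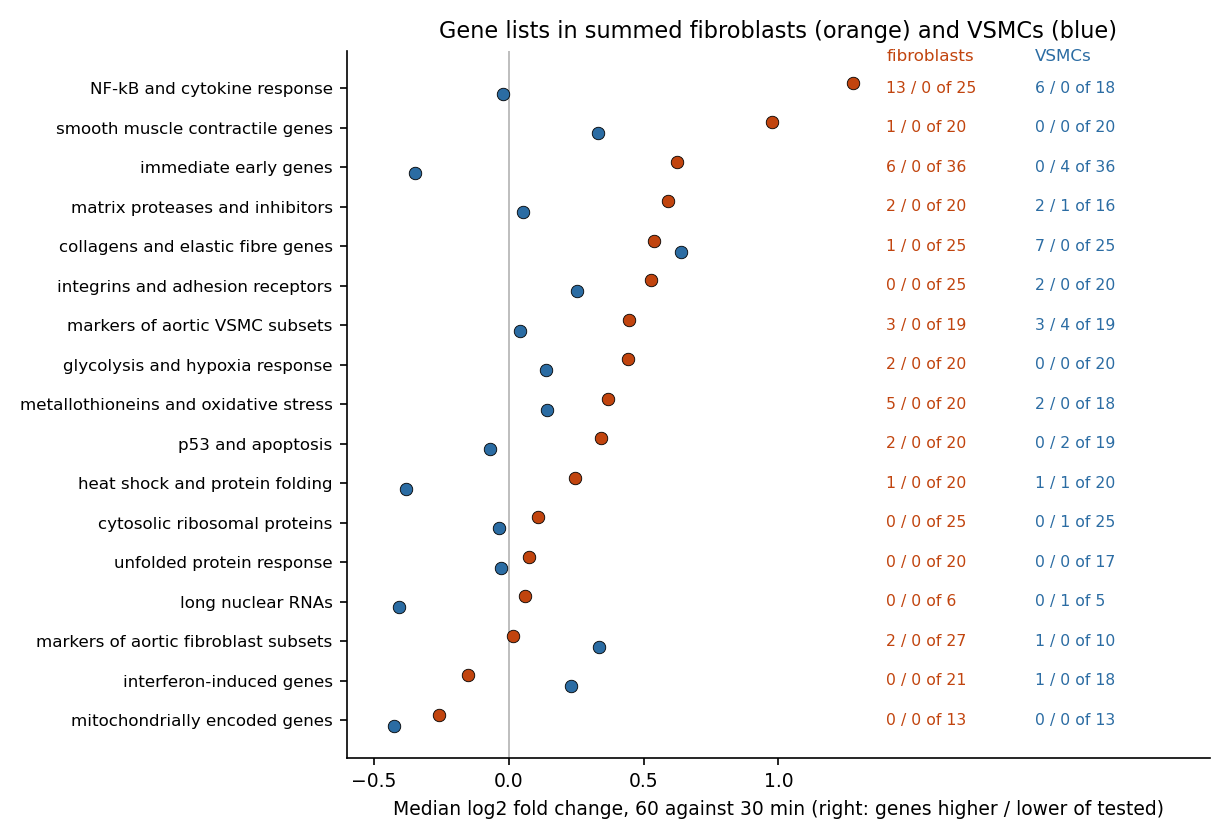
Median log2 fold change from 30 to 60 min of 17 gene lists in summed fibroblasts (orange) and VSMCs (blue), with the number of genes higher and lower of those tested at the right. The NF-kB list stands at 1.28 in fibroblasts and, over the 18 genes tested, at −0.02 in VSMCs, where it reached 1.06 with no filter on low counts. All genes tested had a median of 0.00 in both.

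The number of calls depended on which libraries entered. In fibroblasts, 326 genes passed in Smad3+/+ alone (2 libraries against 3) and 10 in libraries labelled Smad3SmKO alone (3 against 4), and in VSMCs 276 and 17. The difference itself passed for 0 genes between genotypes in either class in edgeR, with 1103 genes in fibroblasts and 539 in VSMCs at an unadjusted p under 0.05, and DESeq2 called 30 and 10. Without 60 min libraries 1 and 2, 26 fibroblast genes (26 higher, 0 lower) and 31 VSMC genes (21 higher, 10 lower) passed, of which 19 and 23 were among those reported. Cxcl1, Cxcl2, Ccl7, Il6, Tnfaip3 and Btg1 in fibroblasts, and Pam, Ptprz1, Wnt16, Ndnf and Mfap4 in VSMCs, were among them. With batch as a random effect in limma-voom, 49 fibroblast genes (38 higher, 11 lower) and 256 VSMC genes (112 higher, 144 lower) passed, and with 1 sum per batch 46 (46 higher, 0 lower) and 179. DESeq2 called 1165 genes in fibroblasts, 646 higher and 519 lower, which is 55.5% higher against 67.7% in edgeR.

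Endothelial cells and leukocytes were tested in the same way in the libraries with at least 10 cells of the class. In endothelial cells (4 libraries against 7), 107 of 7028 genes were higher at 60 min (1.52%) and 26 lower (0.37%). Of 33 immediate early genes 14 were higher and 0 lower (median 1.03), and of 20 NF-kB list genes 8 were higher and 0 lower (median 1.31), against a median of −0.06 over all genes. Il6 rose from 10.8 ± 6.45 CPM (SD, n = 7) to 113 ± 42.3 CPM (SD, n = 4; log2 fold change 3.54 ± 0.33 SE, adjusted p = 0.000117 in edgeR), and Ier3 from 432 ± 104 to 2256 ± 598 CPM. The early genes Fos (1.31), Jun (1.03) and Junb (1.49) passed here. Of 13 mitochondrially encoded genes 4 were lower (median −0.76). The difference between endothelial cells and the other classes was not tested.

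In leukocytes (5 libraries against 7), 254 of 8186 genes were higher (3.1%) and 56 lower (0.684%). Of 20 NF-kB list genes 6 were higher and 0 lower (median 0.88), and of 35 immediate early genes 7 were higher and 1 lower (median 0.39). Cxcl2, already abundant at 30 min with 7986 ± 3752 CPM (SD, n = 7), reached 38895 ± 20549.8 CPM (SD, n = 5; log2 fold change 2.18 ± 0.39 SE, adjusted p = 0.00693 in edgeR), and Ptgs2 rose from 45.9 ± 25.1 to 519 ± 379 CPM (log2 fold change 3.32 ± 0.47 SE, adjusted p = 0.00184 in edgeR). Tsc22d3, lower in VSMCs as well, fell by 1.76 on the log2 scale (adjusted p = 0.00819). Contractile genes (5 of 11) and collagens (3 of 9) were also higher within the leukocyte class. Leukocytes are a mixture of cell types whose proportions differed between libraries, and the part of that mixture in these values was not tested.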

How the data were processed

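The authors aligned the 10x Genomics reads with Cell Ranger (version 4.0.0 per the file headers, version 6 per the submitters' notes) and deposited filtered UMI counts per gene and cell, which were used as deposited for 31055 features. The cells kept had above 600 and below 6000 detected genes, a UMI total above 2000 and below 50000, and a mitochondrial share below 25%, and doublets were limited by the upper bounds alone, with no doublet caller. Remaining cells without either class were named endothelial or leukocyte from at least 3 markers. The libraries, classes and gene lists were chosen with earlier results of these data known. The study's methods describe 1 cell suspension per mouse and as many mice as libraries, so each library was taken as 1 mouse.

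UMI counts were summed per library and class, filtered with filterByExpr by digestion, scaled by TMM and tested with edgeR 4.0.16 (limma 3.58.1, R 4.3.3) in a quasi-likelihood fit with digestion and genotype as terms, with an adjusted p under 0.05 as the threshold. Fibroblasts and VSMCs were compared in 1 fit of both classes with a term per library. Yields and quality were compared by a two-sided exact permutation of digestion within genotype (350 arrangements, 18 measures). Named genes were the 8 per direction with the largest log2 fold change at 20 CPM or more whose groups did not overlap (then regardless of overlap), the 4 members of smallest p per list, and 4 per direction for the difference between classes. Other genes named as list members were those passing the test, and Fos, Fosb, Jun, Junb and Egr1 were chosen after their values were seen, as were the comparison of marker shares and its 3 fibroblast markers. Alternatives were DESeq2 1.42.0, other scaling and filters, a stricter class rule, thinning, batch as a random effect, and leaving out libraries, batches or genotypes. The sum per batch, the minimum of 50 VSMCs, the libraries without GFP and the tests in endothelial cells and leukocytes were added after seeing the data. On simulated data with 100 genes changed at each size, a log2 fold change of 2 was recovered for 83% in fibroblasts and 98% in VSMCs, and one of 1 for 45% and 77%. Unchanged genes called were 4 in fibroblasts and 6 in VSMCs. The simulated libraries were independent, with no batch effect, so these rates do not apply to digestion nested in batch.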

Additional observations from a re-analysis of the deposited data

Results flagged for a closer look

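Groups were screened for a single library standing apart from the rest (Dixon's test), which picked out 23 of 170 groups of libraries; chance picks out about 1 in 20. In 60 min library 5, the library with 62.4% VSMCs, the fibroblast class held the highest Cnn1 (287 CPM, next 75.0), Igfbp2 (101 CPM, next 21.2), Tes (16.8 CPM, next 4.51) and Fn1 (2975 CPM, next 915). Its VSMCs held the highest Fbln2 (115 CPM, next 34.6) and Serpinb1a (11.1 CPM, next 6.37) of that group, and its mitochondrial share stood apart over kept cells (4.31%, next 2.07%) and over fibroblasts (3.41%, next 1.74%). In 60 min library 4, the VSMC class stood apart in Cxcl1 (131.5 CPM, next 84.3), Tsc22d3 (34.6 CPM, next 16.9), Klf2 (265 CPM, next 152) and genes per VSMC at 2000 UMIs (970, next 1003).

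Blood and immune transcripts stood apart in single libraries. Leukocytes were 21.7% of cells in 60 min library 3 (next 7.57%). Immunoglobulin transcripts were at 3867 CPM in 30 min library 3 (next 19.8) and at 11279 CPM in 60 min library 2 (next 2045), and haemoglobin at 247 CPM in 60 min library 1 (next 8.66). Among libraries of 30 min, endothelial cells were 7.14% in library 7 (next 3.83%). Fibroblasts of that group stood apart in Cxcl5 (18.3 CPM, next 8.94) and Car3 (144 CPM, next 67.4) in library 4 and in Il6 (39.0 CPM, next 22.3) in library 7. VSMCs of that group stood apart in Serpinb1a (127.9 CPM, next 54.2) in library 7, Mfap5 (352 CPM, next 174) in library 6 and Pln (725 CPM, next 259) in library 3. The change from 30 to 60 min differed between VSMCs and fibroblasts for 252 genes by the test of the difference itself (edgeR, class by digestion).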

How the results depend on the processing

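None of the genes called in fibroblasts, in VSMCs or for the difference between classes was called in the opposite direction under an alternative. The values that changed are grouped by setting.

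Of 279 fibroblast genes called, DESeq2 gave 1165, 1 sum per batch 46, leaving out the 60 min libraries without GFP 26, libraries labelled Smad3SmKO alone 10, thinned cells 150, batch as a random effect 49, an adjusted p under 0.01 gave 32 and a 2-fold change 157; without batch 2, 3, 5 or 6 the count was 30, 42, 494 or 74. Leaving out 1 library gave 53 (30 min library 2) to 408 (60 min library 5). Of 361 VSMC genes, the same settings gave 626, 179, 31, 17 and 119, at least 50 VSMCs 157, no filter 1041 (61.7% higher against 51.2%), an adjusted p under 0.01 gave 80 and a 2-fold change 179; without batch 2, 3, 5 or 6 the count was 139, 151, 137 or 48, and without 1 library 144 (60 min library 2) to 384 (60 min library 5). Of 252 genes for the difference between classes, DESeq2 gave 449, 1 sum per batch 38, libraries without GFP left out 0, thinned cells 83, at least 50 VSMCs 57, no filter 486, and without batch 1, 2, 3 or 6 the count was 152, 37, 69 or 33; without 1 library it was 98 (60 min library 2) to 402 (60 min library 5). For the difference between genotypes, 0 in both classes, DESeq2 gave 30 and 10 and no filter gave 0 and 109.

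The VSMC difference of 21.4 percentage points was 19.4 with the stricter class rule, 25.3 over batch means (where p cannot be under 0.1), 30.0 without the libraries without GFP, and 20.2, 21.5, 22.0, 5.73 and 44.6 without batches 1, 2, 3, 5 and 6, none of which passed; without 1 library it was 12.6 to 27.8 (adjusted exact permutation p 0.0343 to 0.0617). The fibroblast difference of −21.5 was −23.1 with the stricter rule, which passed, and −29.1 to −15.0 without 1 library. The kept share of −22.6 was −21.0 over batch means, −13.7 without the libraries without GFP and −20.8, −24.6, −22.1, −23.7 and −17.3 without batches 1, 2, 3, 5 and 6, none of which passed, and −25.8 to −18.9 without 1 library. Settings that leave out a batch hold fewer arrangements, so their failure to pass cannot by itself judge these differences. Apart from settings that leave out samples, the cause of these changes was not tested. No paired analysis was possible because replicate numbers do not tie libraries of one digestion time to those of the other. With 22 to 259 VSMCs per library at 30 min, against 319 to 1381 at 60 min, VSMC values at 30 min are the least precise.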
